A study of Mus musculus with 4 samples.

Results

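The genes described here are 5 forkhead transcription factors of the FoxO and FoxP subfamilies, Foxo1, Foxo3, Foxo4, Foxp1 and Foxp4. They were taken by exact symbol from a deposited table of 23275 gene entries, and all 5 were found there and all 5 were tested by the authors. RNA came from B220+CD43+ cells, a surface phenotype of early B-lineage cells, sorted from the bone marrow of C57BL/6 mice at 8 weeks of age. The wild-type group was Hdac3+/+Mb1cre+/- and the deleted group Hdac3F/-Mb1cre+/-, with 1 conditional and 1 null allele of Hdac3, so both groups carried the recombinase. Mb1-cre expresses Cre from the B-lineage gene Cd79a, so cells of other lineages in the gate are not expected to delete the conditional allele. Each group had 2 libraries, and each library pooled cells from 2 mice. The study asked what the deacetylase HDAC3 contributes to V(D)J recombination and B-cell development.

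FoxO proteins bind DNA through a forkhead domain and activate genes of cell cycle arrest, cell death, stress resistance and, in lymphocytes, receptor gene recombination and homing. They are held in check by the PI3 kinase pathway, in which the kinase AKT phosphorylates them and they leave the nucleus bound to 14-3-3 proteins. Foxo1 is known in B-cell progenitors as an activator of Rag1, Rag2 and the interleukin 7 receptor gene. FoxP proteins form dimers and recruit corepressors. Foxp1 is known to be needed early in B-cell development, where it acts at an enhancer of the Rag genes. The table measures RNA and says nothing of phosphorylation or of where the proteins are in the cell.

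The regulatory sequence before the transcription starts is shown for Foxo1, the 1 gene of the 5 that passed the test, and for Foxo3 and Foxp4 for comparison. The sequences are from RefSeq, build GRCm38.p6, which has the coordinates of mm10, and each run ends where the first annotated exon begins. They are printed on the strand of the gene. Capitals mark 2 motifs, searched on both strands. One is CCAAT, the box named after its letters. The other is the GC box, whose letters are GGGCGG. None of the matches marked overlap each other. The Foxo1 run lies at chr3:52268087-52268335 on the plus strand, that of Foxo3 at chr10:42276756-42276945 and that of Foxp4 at chr17:47924646-47924882, both on the minus strand.
Foxo1: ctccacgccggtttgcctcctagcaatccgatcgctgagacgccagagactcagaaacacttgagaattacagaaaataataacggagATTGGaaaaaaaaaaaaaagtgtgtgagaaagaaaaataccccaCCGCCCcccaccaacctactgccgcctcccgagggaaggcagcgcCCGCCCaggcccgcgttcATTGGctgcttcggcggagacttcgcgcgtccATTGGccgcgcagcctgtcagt
Foxo3: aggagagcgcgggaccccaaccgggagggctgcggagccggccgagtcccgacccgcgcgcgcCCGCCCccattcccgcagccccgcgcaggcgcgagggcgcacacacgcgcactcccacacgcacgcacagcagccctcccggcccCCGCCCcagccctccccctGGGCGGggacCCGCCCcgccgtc
Foxp4: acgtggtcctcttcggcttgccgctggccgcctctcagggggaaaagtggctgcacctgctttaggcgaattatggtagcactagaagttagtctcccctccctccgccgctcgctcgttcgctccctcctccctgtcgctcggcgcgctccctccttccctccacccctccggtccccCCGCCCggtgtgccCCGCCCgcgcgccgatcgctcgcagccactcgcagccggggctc

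The Foxo1 run held 3 CCAAT matches, whose first bases lie at -162, -55 and -23 from the RefSeq start, and 2 GC boxes, at -118 and -73. Its 250 bases before the start had 56.0% G and C, against a median of 52.4% over 32851 RefSeq windows of that length. At least 3 CCAAT matches were found in 2.79% of these windows. The 250 bases before Foxo3 held no CCAAT match but 5 GC boxes, 4 of them in the printed run, and at least 5 were found in 1.93% of windows. Their content was 76.4% G and C. Those of Foxp4 held 2 GC boxes, no CCAAT match and 69.6% G and C. The FoxO consensus TGTTTAC, searched on both strands, did not occur in the 250 bases before any RefSeq start of Foxo1, Foxo3, Foxp1 or Foxp4, and it occurred in 3.54% of 27025 genes. Foxo4 is not in the sequence table. Foxp1 has 3 RefSeq starts and no run of it is printed.

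Levels are in FPKM, which divides the fragments of a gene by its transcript length and by the size of the library, so they can be compared between genes. The authors deposited 1 value per genotype, which combines the 2 libraries, so no spread between libraries can be given, and the depth of the libraries is unknown. A gene was called changed when the q-value of the authors' Cuffdiff test was under 0.05. Nothing in the labels says whether the pools of a genotype were sorted on separate days. Hdac3 was lower in the group labelled as deleted, at 46.8 FPKM in the wild type and 22.0 FPKM after deletion, so that 47.1% was left (authors' deposited table, q = 0.0016). That value covers the whole gene, exons outside the deleted part included.

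Foxo1 rose and the other 4 genes did not pass the test. Of 12683 genes tested in the authors' deposited table, 6.95% were called, 2.81% as higher and 4.14% as lower, and of the 5 forkhead genes 1 was called. Foxo1, on chromosome 3 from 52268337 to 52350109 of mm10, plus strand, was 38.3 FPKM in the wild type and 77.6 FPKM after deletion. That is a 2.03-fold increase, or 1.02 on the log2 scale (authors' deposited table, q = 0.0016). Dividing the log2 fold change by the authors' test statistic gives an approximate standard error of 0.26 and a 95% interval from 1.43-fold to 2.87-fold. The deposited p-value, 5e-05, is the smallest in the table and is shared by 396 genes.

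By size of change Foxo1 was the 129th of the 356 genes called higher, and 2.01% of all tested genes had a larger log2 fold change. Among called genes at or above its wild-type level, 9 had a larger log2 fold change. Foxo1 moved from the 79.4th percentile of tested genes by level in the wild type to the 90.5th after deletion. The annotated antisense gene Gm20402, on the opposite strand, overlaps exon sequence of Foxo1 between 52268435 and 52269435. Gm20402 has no entry of its own in the table, and the sources used here do not say whether the counting used strand, so fragments of the 2 genes cannot be told apart.

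**Figure D1:**
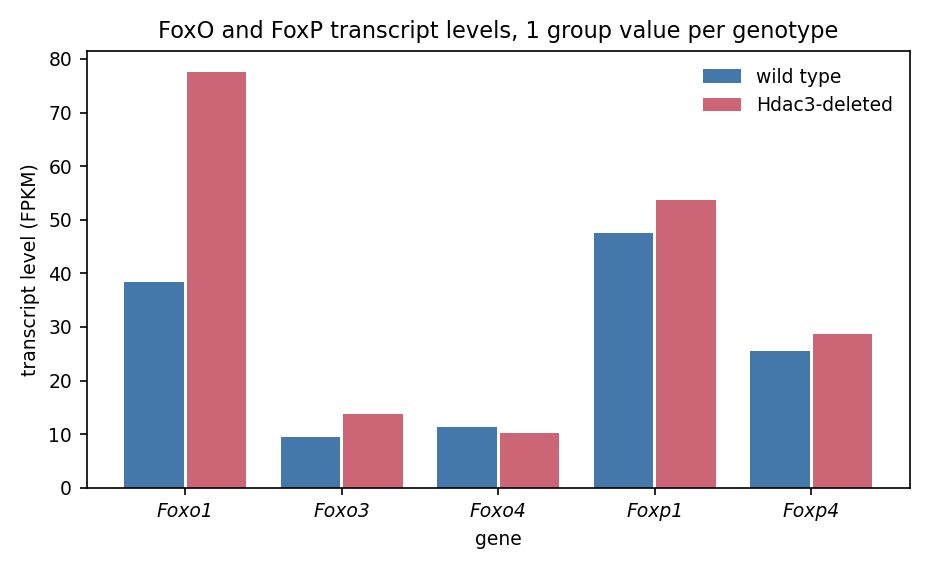
Transcript levels in FPKM (y axis, from 0) of the 5 genes (x axis), with 1 bar per genotype and no error bars, because each bar is the authors' single group value. Foxo1 goes from 38.3 to 77.6 FPKM and becomes the highest of the 5, while the bars of Foxo4, Foxp1 and Foxp4 differ little between genotypes.

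Foxo3, a FoxO factor best known for its part in stem cell maintenance and apoptosis, lies on chromosome 10 from 42185786 to 42276742, minus strand. It was 9.56 FPKM in the wild type and 13.8 FPKM after deletion, a ratio of 1.44 that did not pass the test (authors' deposited table, q = 0.109). The approximate 95% interval of the ratio ran from 0.951 to 2.18, so it includes both no difference and the 2.03-fold change of Foxo1. The unadjusted Cuffdiff value behind this q was 0.01045, smaller than the interval allows, since the deposited p-values do not follow a normal distribution of the test statistic.

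Foxo4, the X-linked FoxO gene, lies on the X chromosome from 101254528 to 101260873, plus strand. It was the 1 member with a lower value in Hdac3-deleted cells, at 11.3 against 10.2 FPKM, and it did not pass the test (authors' deposited table, q = 0.818). Its ratio of 0.901 had an approximate 95% interval from 0.600 to 1.35, which does not reach the 1.43-fold lower bound of Foxo1. Whether the changes of Foxo1 and Foxo4 differ was not tested.

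The summed level of the 3 FoxO genes was 59.2 FPKM in the wild type and 102 FPKM after deletion. Foxo1 supplied 64.7% of that sum in the wild type and 76.4% after deletion, and 92.7% of the difference between the genotypes. Foxo6, the remaining FoxO gene, was not tested, with 0.0896 FPKM in the wild type and 0.0393 FPKM after deletion.

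Foxp1, on chromosome 6 from 98925342 to 99435345, minus strand, was the most abundant of the 5 in wild-type cells. It was 47.6 FPKM there and 53.7 FPKM in Hdac3-deleted cells, a ratio of 1.13 that did not pass the test (authors' deposited table, q = 0.769). The approximate 95% interval of the ratio ran from 0.762 to 1.68, so a 1.5-fold rise lies within it. The GENCODE annotation of the same build gives Foxp1 31 transcripts and a span that goes on to 99522721, past the end of the deposited entry. The deposited value is 1 sum over the gene, so a shift between Foxp1 isoforms would not be seen in it. Exons of Foxp1 also overlap those of 2 other annotated genes on the same strand, the protein-coding Gm20696, from 99257484 to 99666797, and the miRNA gene Gm49348. Neither has an entry of its own in the table, so fragments from the shared exons cannot be told apart by gene.

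Foxp4, on chromosome 17 from 47867133 to 47924632, minus strand, encodes a FoxP factor that can pair with Foxp1. It was 25.6 FPKM in the wild type and 28.6 FPKM after deletion, a ratio of 1.12 (authors' deposited table, q = 0.777), with an approximate 95% interval from 0.750 to 1.67. Foxp1 and Foxp4 together were 73.1 FPKM in the wild type and 82.4 FPKM after deletion, with Foxp1 at 65.0% and 65.2% of the sum. Foxp2 and Foxp3, the latter the factor of regulatory T cells, were not tested. Foxp2 was 0.0200 and 0.0176 FPKM in wild-type and Hdac3-deleted cells, and Foxp3 was 0.102 and 0.0800 FPKM.

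The order of the 5 levels differed between the genotypes. In wild-type cells Foxp1 was highest, followed by Foxo1, Foxp4, Foxo4 and Foxo3. In Hdac3-deleted cells the order was Foxo1, Foxp1, Foxp4, Foxo3 and Foxo4. The ratio of Foxo1 to Foxp1, which does not depend on how the libraries were scaled, was 0.806 in the wild type and 1.44 after deletion. The ratio of Foxo3 to Foxo4 was 0.843 and 1.35. Without values per library, it cannot be said whether neighbours in either order differ beyond their spread.

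**Figure D2:**
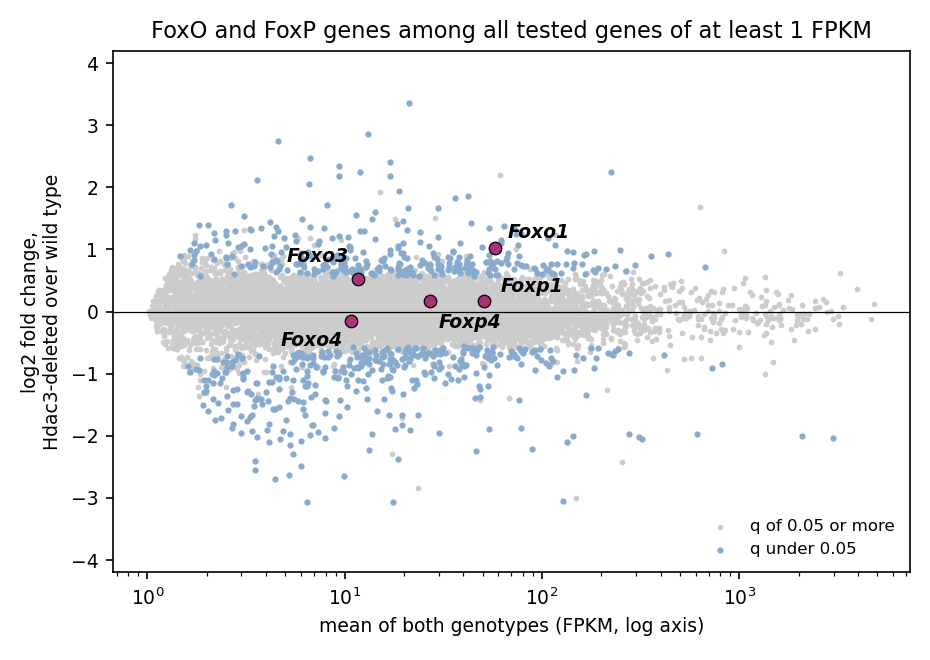
Log2 fold change (y axis) against the mean level of both genotypes in FPKM (x axis, log scale) for every tested gene that reached 1 FPKM in both genotypes, 1 point per gene, with the 5 forkhead genes in dark red. Foxo1 lies at 1.02 among the called genes, Foxo3 at 0.53 at the edge of the uncalled ones, and Foxo4, Foxp1 and Foxp4 within 0.18 of 0.

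The genes whose pair of group values lay nearest to each of the 5 were taken from 11115 tested genes that reached 1 FPKM in both genotypes, by distance in log2 FPKM over the 2 group values. Nearest to Foxo1 were Scap, the escort protein of SREBP, at 40.1 and 79.6 FPKM, and Gpam, an enzyme of triglyceride synthesis, at 39.1 and 84.5 FPKM. Their distances were 0.07 and 0.13, and both rose (authors' deposited table, q = 0.0016 for each). Nearest to Foxo3 were Hivep2 and Il4ra, to Foxo4 Nme4 and 2410091C18Rik, to Foxp1 Slc50a1 and Mctp2, and to Foxp4 Sfswap and Arid2, all within 0.04 and none of these 8 called. A likeness over 2 values describes level and ratio alone.

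Among all forkhead genes Foxo1 was the 1 that passed. The table holds 45 entries named as forkhead genes, one of them the antisense RNA Foxl2os, and 14 were tested, these 5 and 9 others. With 1 call among 14, the share called was 7.14%, close to the 6.95% of all tested genes. None of the 9 others was called by the authors' Cuffdiff test, and 0 were called with a normal p computed from the test statistic. An unadjusted Cuffdiff p under 0.05 was found for 1 of them, or 11.1%, against 17.1% of all tested genes. These 9 had a median log2 fold change of 0.08, against 0.03 for all tested genes, and lay between -0.36 and 0.63. Foxm1, the forkhead activator of mitotic genes, was the most abundant of the 9, at 45.0 FPKM in the wild type and 35.0 FPKM after deletion (authors' deposited table, q = 0.329). The entry of Foxm1 has the same locus as another entry, which makes its value less certain. Foxn3, known as a repressor, was 15.8 and 19.5 FPKM (q = 0.488 in the authors' deposited table), and Foxk2 was 16.3 and 17.2 FPKM (q = 0.924 in the authors' deposited table). Foxr1, singled out after its values were seen, had the largest ratio after Foxo1, at 1.54 from 4.77 to 7.36 FPKM, and did not pass (authors' deposited table, q = 0.136). The 31 untested forkhead entries had at most 0.244 FPKM in either genotype, and 12 of them were listed at 0 in both.

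**Figure D3:**
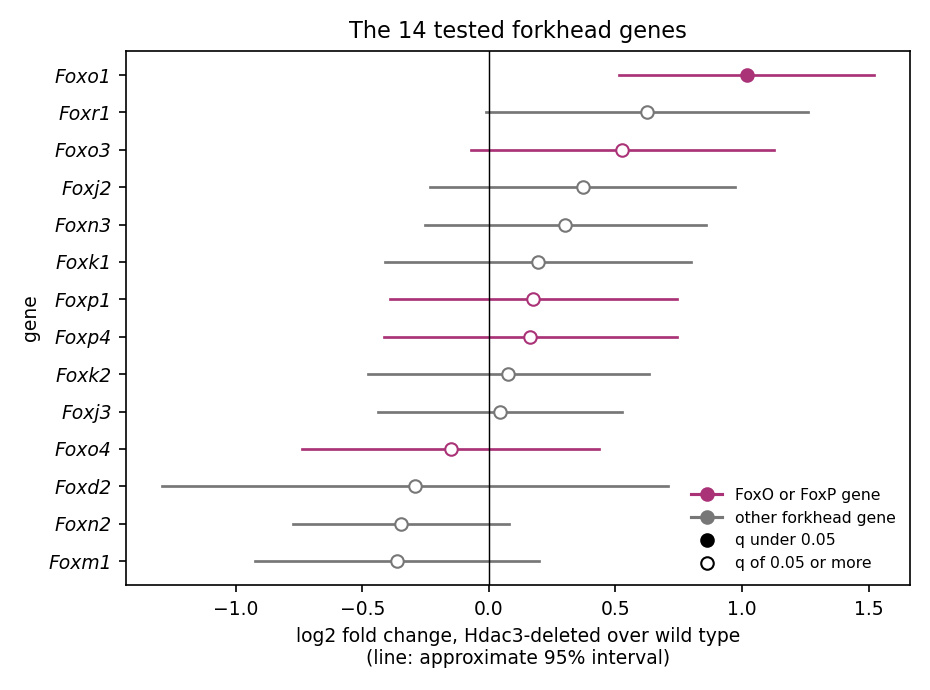
Log2 fold change of Hdac3-deleted over wild-type cells (x axis) for the 14 tested forkhead genes (y axis), with lines for the approximate 95% interval from the authors' test statistic and filled points for q under 0.05. The interval of Foxo1, from 0.51 to 1.52, lies to the right of 0, and the intervals of the 13 other genes include 0.

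The genes that FoxO factors are known to act on in lymphocytes included 4 that rose and 0 that fell among 15 tested, or 26.7% called against 6.95% of all tested genes. Rag1, a catalytic subunit of the recombinase, rose 4.77-fold from 77.8 to 372 FPKM, and its partner Rag2 rose 2.60-fold from 35.5 to 92.3 FPKM (authors' deposited table, q = 0.0016 for each). Blnk, an adaptor of the pre-B-cell receptor, rose 1.68-fold from 220 to 370 FPKM (authors' deposited table, q = 0.0216). S1pr1, a receptor that guides lymphocytes out of tissues, rose 1.61-fold from 11.2 to 18.0 FPKM (authors' deposited table, q = 0.0154). The entry of Rag2 has the same locus as a second entry, which makes its value less certain. The median log2 fold change over the list was 0.33, against 0.03 for all tested genes. At a q threshold of 0.01, or with a normal p from the test statistic, 2 genes of the list were called. Rag1, Rag2 and Blnk also stand in the list of B-cell progenitor markers, of which 41.2% were called. The lymphocyte list, like those below, was chosen with earlier results of these data known, so its share called is a description.

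Other genes of this list that are widely used as readouts of Foxo1 did not pass the test. They are named here after their values were seen. Il7r, the interleukin 7 receptor, was 151 FPKM in the wild type and 189 FPKM after deletion (authors' deposited table, q = 0.473). Klf2, a factor of lymphocyte migration, was 78.3 and 88.4 FPKM (q = 0.763 in the authors' deposited table). Cxcr4, a marrow homing receptor, was 254 and 366 FPKM (q = 0.142 in the authors' deposited table). The B-lineage factors Ikzf1 and Ikzf3 were lower in Hdac3-deleted cells by ratios of 1.32 and 1.33, without passing the test.

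FoxO target genes of cell cycle arrest, death and metabolism were tested in 34 cases, and 6 rose while 2 fell. The share called was 23.5%, against 6.95% of all tested genes. The list had a median log2 fold change of 0.24, against 0.03 for all tested genes. The cell cycle inhibitor gene Cdkn1a (p21) went up 3.16-fold, from 14.2 to 44.9 FPKM, and Irs2, an insulin receptor substrate, rose 2.58-fold from 3.71 to 9.57 FPKM (authors' deposited table, q = 0.0016 for each). The entry of Irs2 shares its locus with another entry, as that of Rag2 does, and its value is less certain for that reason. Cdkn2c, the cell cycle inhibitor p18, fell 2.30-fold from 74.6 to 32.5 FPKM, and Klf4, a factor that restrains B-cell proliferation, fell 2.71-fold from 7.53 to 2.78 FPKM (authors' deposited table, q = 0.0016 for each). The inhibitor genes Cdkn1a and Cdkn2c, both in this list of FoxO targets, thus moved in opposite directions. The remaining 4 that rose were Cat, the catalase, 1.95-fold to 189 FPKM, Bbc3, the death gene PUMA, 2.09-fold to 5.81 FPKM, Sesn1, 1.72-fold to 52.7 FPKM, and Tnfsf10, the death ligand TRAIL, 1.60-fold to 20.9 FPKM. With a normal p from the test statistic 3 genes of the list were called higher. Cdkn1a, Bbc3 and Sesn1 are also known as p53 targets. So are Pmaip1, Gadd45a and Sesn2 of the same list, which did not pass (authors' deposited table, q = 0.0977, 0.315 and 0.499). The test statistic of Pmaip1 was negative, at -2.39, so its value was lower in Hdac3-deleted cells.

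The FoxO consensus was found in the 250 bases before the start of 5 of the 32 genes of this list that have a RefSeq promoter, or 15.6%, against 3.54% of all 27025 genes. The list was drawn from known FoxO targets, so this share is a description of the list. None of 11 genes of the lymphocyte list with a RefSeq promoter held it there. The 30 bases around each match are shown because they place the consensus relative to the start of each gene, with the consensus in capitals and the strand of the gene printed. They lie in GRCm38.p6 on the plus strand at chr7:16310082-16310111 for Bbc3, chr2:128125799-128125828 for Bcl2l11, chr3:96557824-96557853 for Txnip, chr19:53329452-53329481 for Mxi1 and chr4:134314914-134314943 for Trim63.
Bbc3: gtctggcgggttTGTTTACaaacaatgggg
Bcl2l11: caagacactaggGTAAACAcgccggggtgg
Txnip: gttggaggcctgGTAAACAagggccaagta
Mxi1: tcgcgcggagaaGTAAACAaaccgcgcgcg
Trim63: acagtctgttctTGTTTACgacccccacgg

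Of these 5 genes Bbc3 rose, with its match at -167 from the start. Bcl2l11, the death gene BIM, was 11.0 FPKM in the wild type and 13.9 FPKM after deletion (authors' deposited table, q = 0.377), with its match at -227. Txnip, an inhibitor of thioredoxin and glucose uptake, was 155 and 200 FPKM (q = 0.417 in the authors' deposited table), with its match at -121. Mxi1, an antagonist of Myc, was 9.97 and 8.36 FPKM (q = 0.593 in the authors' deposited table), with its match at -231. Trim63, a ubiquitin ligase of muscle, was not tested, at 0.0946 FPKM or less. The windows of Txnip and Mxi1 overlap an annotated exon.

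**Figure D4:**
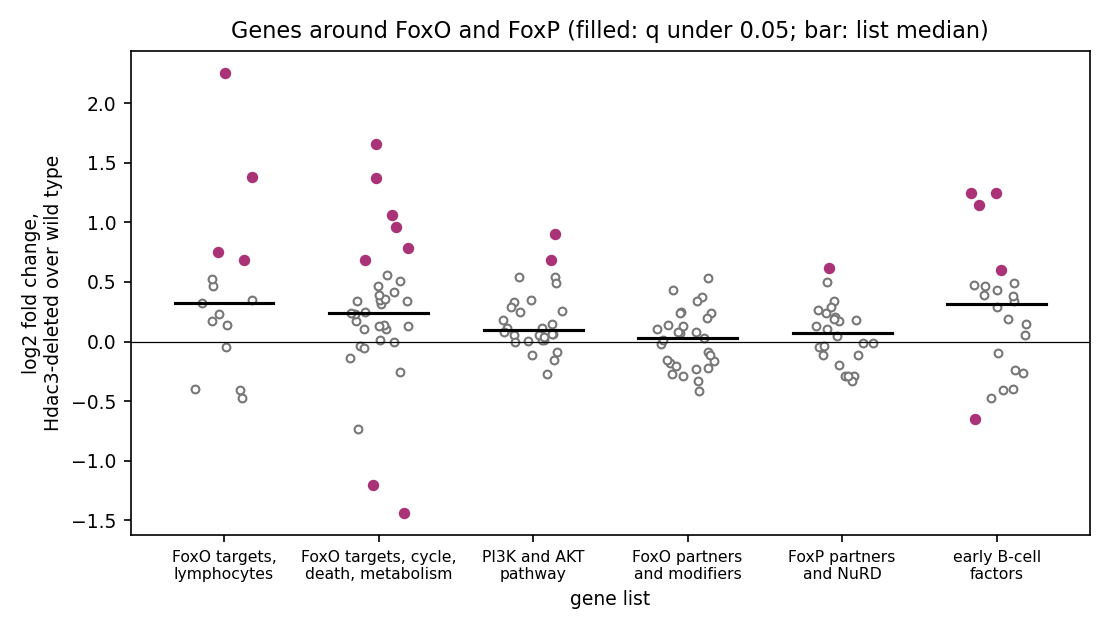
Log2 fold change of Hdac3-deleted over wild-type cells (y axis) for the tested genes of 6 lists around FoxO and FoxP (x axis), 1 point per gene, filled where q was under 0.05, with a bar at the list median. Both lists of FoxO targets and the early B-cell factors have medians of 0.24 to 0.33, and the other 3 lists of 0.03 to 0.10.

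Upstream of FoxO, 28 genes of the PI3 kinase and AKT pathway were listed and all tested, and of these 2 rose and 0 fell, with a median log2 fold change of 0.10. The share called, 7.14%, is close to the 6.95% of all tested genes, so the count is not a result about the pathway. Pik3ap1, an adaptor that recruits PI3 kinase, rose 1.87-fold from 113 to 212 FPKM (authors' deposited table, q = 0.0016). Pik3cd, the catalytic subunit p110 delta of leukocytes, rose 1.60-fold from 82.7 to 133 FPKM (authors' deposited table, q = 0.0331). Only the first was called at a q threshold of 0.01, and 0 genes were called with a normal p from the test statistic. Inpp5d, encoding the phosphatase SHIP1 that opposes the pathway, was named after its values were seen and did not pass, at 87.9 and 128 FPKM (authors' deposited table, q = 0.126). Akt1 was 101 FPKM in the wild type and 83.3 FPKM after deletion, and Akt2 43.2 and 38.8 FPKM, neither of them called.

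Of 29 binding partners and modifiers of FoxO proteins, all tested, 0 were called by the authors' Cuffdiff test, against 6.95% of all tested genes. Their median log2 fold change was 0.03, as over all tested genes. An unadjusted Cuffdiff p under 0.05 was found for 3 of the 29, namely Usp7, Crebbp and Mapk8. That is 10.3%, against 17.1% of all tested genes. With the adjusted normal p 0 were called. The most abundant were the 14-3-3 genes Ywhae, at 366 and 344 FPKM, and Ywhaz, at 235 and 240 FPKM. Of 24 FoxP partners and NuRD corepressor genes, all tested, 1 rose and 0 fell, with a median of 0.07. The share called was 4.17%, against 6.95% of all tested genes, so the count is not a result about these partners. The gene that rose was Tbl1x, a subunit of the NCoR corepressor complex that holds HDAC3, 1.54-fold from 30.4 to 46.7 FPKM (authors' deposited table, q = 0.0266). This call was lost at a q threshold of 0.01 and with a normal p from the test statistic.

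Early B-cell transcription factors other than the forkhead genes were called higher in 4 of 22 tested cases and lower in 1. The share called was 22.7%, against 6.95% of all tested genes. Their median log2 fold change was 0.31, against 0.03 for all tested genes. Sox4, Lef1 and Erg had folds near that of Foxo1 or above it, at 2.37, 2.37 and 2.22 (authors' deposited table, q = 0.0016 for each). Pax5, the B-lineage commitment factor, rose 1.52-fold (authors' deposited table, q = 0.0354). Ebf1, which acts together with Foxo1 in B-lineage specification and was named after its values were seen, was 77.4 FPKM in the wild type and 107 FPKM after deletion (authors' deposited table, q = 0.165). The gene that fell was Gfi1, a repressor, 1.57-fold (authors' deposited table, q = 0.0457), and it was called neither at a q threshold of 0.01 nor with a normal p.

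Markers of the cell types in the gate moved in the same samples. In bulk samples, fewer cells of a type and less RNA per cell cannot be told apart. Of 17 B-cell progenitor markers, all tested, 7 rose and 0 fell, or 41.2% called against 6.95% of all tested genes. Their median log2 fold change was 0.47, and their summed level was 3597 FPKM in the wild type and 5179 FPKM after deletion. At a q threshold of 0.01 there were 3 higher genes in the list, and 2 with a normal p. Rag1, Rag2, Blnk, Il7r and Ebf1 stand in this list and in that of the lymphocyte FoxO targets. The ratios over the list ran from 0.933 for Vpreb3 to 4.77 for Rag1. Rag1 and Rag2 lay above the 2.03-fold rise of Foxo1, and the other called members, which were Dntt at 1.91, Blnk at 1.68, Igll1 at 1.64, Vpreb1 at 1.57 and Pax5 at 1.52, lay below it. Spn, which encodes the CD43 used in the sort, was 89.2 and 109 FPKM.

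Markers of other cells in the gate were also present, and none of the markers found in the table was listed at 0. Of 13 plasmacytoid dendritic cell markers 0 were called by the authors' Cuffdiff test, against 6.95% of all tested genes. With a normal p 0 were called, and Cox6a2 alone was called at a q threshold of 0.10. An unadjusted Cuffdiff p under 0.05 was found for 3 of the 13, or 23.1%, against 17.1% of all tested genes. The entry of Cox6a2 shares its locus with another entry, so its value is less certain. All 13 had higher values in Hdac3-deleted cells, and their sum was 3334 and 4275 FPKM. Of 17 neutrophil and other myeloid markers 12 fell, among them S100a8 from 4815 to 1172 FPKM, and Cd14 rose from 0.602 to 2.94 FPKM (authors' deposited table, q = 0.0016 for each). The sum over this list was 11091 and 2758 FPKM, and the share called was 76.5%. Of 18 T, NK and innate lymphoid markers 2 rose, Tcf7 and Eomes, or 11.1% called against 6.95% of all tested genes. The list summed to 851 and 943 FPKM, and 0 of its genes rose at a q threshold of 0.01 or with a normal p. Basophil and mast cell markers fell in 3 of 6, or 50.0% (Mcpt8, Prss34 and Gata2), and erythroid markers in 1 of 3 tested, or 33.3% (Car2). Plasma cell markers fell in 3 of 6, or 50.0% (Sdc1, Igj and Derl3), and in 1 of 6 with a normal p. The other 3 had higher values in Hdac3-deleted cells and did not pass the test. They were Prdm1, at 1.67 and 2.16 FPKM, Xbp1, at 113 and 132 FPKM, and Irf4, at 85.0 and 111 FPKM. The basophil and mast cell list summed to 22.3 and 4.73 FPKM, the erythroid list to 56.0 and 27.3 FPKM, and the plasma cell list to 468 and 355 FPKM. The part of these shifts in the rise of Foxo1 was not tested.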

How the data were processed

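RNA was measured in 4 libraries, 2 per genotype. Per the labels' protocols, polyadenylated RNA was made into libraries with an Illumina TruSeq kit. Per the submitters' processing notes, Trimmomatic 0.32, TopHat2 2.0.11 and Cuffdiff 2.1.1 were used with mm10. The sources used here do not give their options or annotation. The authors deposited 1 FPKM value per gene and genotype. Also deposited were the test statistic, a score, and the p-value and q-value of the authors' test. Of 23275 entries 12683 were tested, and the smallest p was 5e-05.

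Fold changes were recomputed from the FPKM values without a pseudocount. Standard errors and 95% intervals are approximate, from dividing the log2 fold change by the deposited statistic. Positions count from 1. Sequences and motif matches are from RefSeq GRCm38.p6, and overlaps from GENCODE vM21. The steps were tested on simulated data with normal errors of constant size. The deposited p-values do not follow a normal distribution of the statistic, so that run does not show how well the intervals cover. The 5 genes, 7 gene lists and 7 marker lists were chosen with earlier results of these data known. From each list up to 4 called genes are named by smallest q, then by fold, or 2 by level where none was called, and of the other forkhead genes every called one and the 3 most abundant uncalled. Other genes were named after their values were seen. Hba-a1 and Hbb-b1 were not matched. Lists carry counts and medians with no set test. The q-values are the authors' Benjamini-Hochberg values over all tested genes. P-values rest on 2 libraries per genotype. Scripts ran in Python 3.11.15 with numpy 2.4.6 and pandas 2.3.3. Quantiles came from scipy 1.17.1, a check of the adjustment from statsmodels 0.14.6, and plots from matplotlib 3.10.9.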

Additional observations from a re-analysis of the deposited data

How the results depend on the processing

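Foxo1 stayed called and the other 4 genes uncalled under the 6 alternatives that act on the calls, namely a q threshold of 0.01 or 0.10, a normal p of the test statistic, a minimum of 1.5-fold, only genes that reach 1 FPKM, and leaving out entries that share a locus. These leave the fold changes as they are. Both thresholds are set against the same deposited q, and the minimum fold can only remove calls. The other 2, a pseudocount of 1 FPKM and fold changes centred on the median gene, leave q as it is. A pseudocount cannot change a direction, and all 5 genes kept theirs after centring. The log2 fold change of Foxo1 ranged from 0.99 to 1.02 and its q from 0.00141 to 0.00372, and the q of Foxo3 from 0.0962 to 0.628. Of the genes called over the whole table, 189 were higher and 345 lower at a q threshold of 0.01, and 136 higher and 335 lower with the normal p. Of 336 values for the lists, 19 moved and 0 reversed. No paired analysis was possible because the deposited table holds 1 value per genotype, and for the same reason no library could be left out. Library depth is unknown.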
